A study of Drosophila melanogaster with 2 samples.

Results

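Binding of Sry-beta was examined at 10 genes of the Notch signalling pathway, namely N, neur, Dl, Ser, Su(H), H, numb, mam, fng and kuz. They are 10 of 13968 protein-coding genes in Ensembl release 115. The list was chosen by pathway role and from earlier results of these data, in which the peaks at N and neur stood near the top of the signal order. Their signal is therefore given as a description, with no test. Sry-beta is a zinc finger protein, and its sites were mapped by chromatin immunoprecipitation followed by sequencing (ChIP-seq). Whole Drosophila melanogaster embryos of 0 to 12 h, pooled from males and females, came from a transgenic line that stably carries Sry-beta with GFP at its C-terminus. The promoter that drives the transgene is not given in the sources used here, and peaks from whole embryos cannot be assigned to a tissue or stage. There was 1 group with 2 biological replicates, numbered 2 and 4, and no comparison of conditions. The free text of the labels calls both libraries an input control, against their assay title, antibody and peak lists. They were taken as ChIP libraries.

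Notch signalling passes a signal between cells that touch. The ligands Delta (Dl) and Serrate (Ser) on the sending cell bind the receptor Notch (N) on its neighbour, and the ubiquitin ligase Neuralized (neur) drives uptake of the ligand, which activation needs. The protease Kuzbanian (kuz) cuts the bound receptor, the glycosyltransferase Fringe (fng) sets which ligand it answers to, and the adaptor Numb (numb) inhibits it. The freed inner part of the receptor enters the nucleus and joins the DNA-binding protein Suppressor of Hairless (Su(H)) and the coactivator Mastermind (mam), while Hairless (H) recruits corepressors to Su(H). In the fly embryo the pathway is known for limiting how many cells of a cluster become neural precursors.

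The 4 highest peaks at these genes lay in an intron of N and at promoters of neur, Su(H) and numb, and the bases around their summits are shown because the report turns on them. Each is 100 bp either side of the pooled summit in the direction of the gene, from the release 6 assembly (dm6). The N window is chrX:3162712-3162912 (+ strand), the neur window chr3R:9033820-9034020 (- strand), the Su(H) window chr2L:15039310-15039510 (+ strand) and the numb window chr2L:9449586-9449786 (+ strand). Capitals mark matches to any of 8 short words that are named with the motif counts. The N and neur windows held none of them.
N: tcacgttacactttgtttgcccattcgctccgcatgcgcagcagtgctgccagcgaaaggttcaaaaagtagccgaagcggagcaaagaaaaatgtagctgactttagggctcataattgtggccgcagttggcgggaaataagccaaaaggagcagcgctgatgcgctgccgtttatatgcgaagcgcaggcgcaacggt
neur: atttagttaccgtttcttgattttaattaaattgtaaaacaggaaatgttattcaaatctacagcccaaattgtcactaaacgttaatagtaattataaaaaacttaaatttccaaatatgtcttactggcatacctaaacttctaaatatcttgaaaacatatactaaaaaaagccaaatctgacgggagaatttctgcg
Su(H): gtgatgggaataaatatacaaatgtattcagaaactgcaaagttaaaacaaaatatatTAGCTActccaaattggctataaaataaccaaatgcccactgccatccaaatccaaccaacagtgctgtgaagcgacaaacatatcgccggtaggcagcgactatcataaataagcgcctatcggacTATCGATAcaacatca
numb: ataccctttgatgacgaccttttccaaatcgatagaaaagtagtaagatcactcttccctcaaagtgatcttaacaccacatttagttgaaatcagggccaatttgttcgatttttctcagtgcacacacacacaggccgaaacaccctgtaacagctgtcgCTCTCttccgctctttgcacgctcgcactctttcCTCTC

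The deposited lists were a pooled relaxed list and a relaxed list for each replicate, of 30000 peaks each, and a list of 3257 peaks kept after replicates were compared by irreproducible discovery rate (IDR). Each peak carries the authors' signal value, whose scale is not stated, so peaks were ranked within a list, with rank 1 the highest. Depth is unknown because the files hold no read counts. All 3257 IDR peaks were pooled peaks, and 0 of the other 26743 pooled peaks had a higher signal than the lowest IDR peak (169). The IDR list was thus the top of the pooled list by signal, and the pooled and IDR ranks of a peak were the same number. A replicate summit was taken as the same site when it lay within 100 bp of the pooled summit. Within 10 kb of the 10 genes lay 13 IDR summits, at 7 genes.

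The receptor gene N had the highest peak of the group, deep inside the gene. N (FBgn0004647) lies at chrX:3134870-3172221 on the + strand and has 1 annotated transcription start site (TSS). The peak spanned chrX:3162162-3163307, with a signal of 9443 and pooled rank 7. Its summit was 27942 bp downstream of the N start, 3578 bp into intron 5 of 8, an intron of 4245 bp. The nearest coding TSS was that of CG18508, 10328 bp away, and no other coding gene spanned the summit. The peak ranked 2 in replicate 2 (signal 3920) and 24 in replicate 4 (signal 5559), and both replicates placed the summit on the same base, 2 bp upstream of the pooled one.

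The rest of N was low by comparison. The other 20 pooled summits within 10 kb had signals from 37.9 to 123, and the highest of them lay in intron 1, 2023 bp from the start, at rank 5019. At the N promoter itself, defined as 500 bp either side of a TSS, the pooled list held only a summit 318 bp upstream at rank 26751. Replicate 2 had its own promoter summit 10 bp downstream of the start at rank 8005, and the highest of 2 in replicate 4 was 495 bp upstream at rank 8748. The promoter summits of the replicates therefore did not coincide.

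Among intronic IDR peaks away from coding starts, none ranked above that of N. Of 797 IDR summits that lay in introns over 500 bp from any coding TSS, the N summit was the highest, against a median signal of 259. The next were in Pcif1 (signal 8450), Adss (5897) and Lsd-2 (5309), at 1167, 783 and 1239 bp from a TSS. Among the 124 such summits over 10 kb from any coding TSS, the next after N were in heca (signal 2960, 19450 bp) and rdx (2506, 14127 bp). This wider gap depends on the limit, which N passed narrowly at 10328 bp. Higher summits than that of heca lay just short of it, in trx (4372, 8305 bp) and CG6191 (4313, 9354 bp). The other intronic summits of the group were far lower, at places 472 to 706 of the 797.

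**Figure D1:**
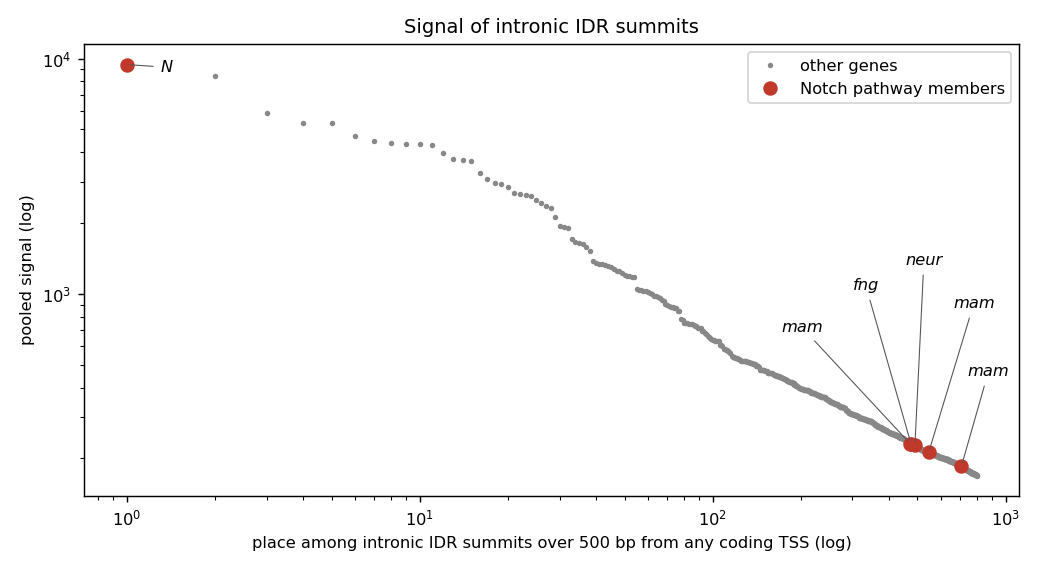
Pooled signal (log axis) of the 797 intronic IDR summits over 500 bp from any coding TSS, in order of signal (log axis), with summits in the Notch pathway genes in red. N is the highest with 9443, and the 5 others, in mam, fng and neur, lie between 185 and 231.

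The ligase gene neur carried the highest promoter peak of the group, at its internal start site. The gene (FBgn0002932) lies at chr3R:9020348-9039471 on the - strand with 2 annotated TSSs. The peak spanned chr3R:9033490-9034463, and its summit was 189 bp upstream of the internal TSS, inside intron 1 of the longer transcript. Its pooled signal was 8655 and its rank 15, and neur was in place 21 of the 2518 genes with a promoter IDR peak. The replicates differed more here than at N. The peak ranked 87 in replicate 2 (signal 1539) and 7 in replicate 4 (signal 7286), and their summits were 102 bp apart, the widest gap among the 12 IDR summits matched in both replicates. The order of N and neur was thus opposite in the replicates, and their ranks were not separated beyond the spread between them.

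A pair of lower IDR summits also lay in neur. That at rank 2207 (signal 227) was 1735 bp downstream of the internal TSS and ranked 1892 and 2618 in replicates 2 and 4. That at rank 2814 (signal 189) was 591 bp downstream of the distal TSS, but only 120 bp from a TSS of hyx, a gene on the opposite strand. This hyx start lies inside neur, and another lies outside it, 295 bp from the distal neur TSS. Which gene the rank 2814 peak belongs to was not tested. At the distal neur promoter the pooled list held a summit 138 bp upstream at rank 3710, just under the IDR limit. It lay between the distal neur TSS and the outer hyx start, and which gene it belongs to was not tested. Replicate 2 had it at rank 3867. In replicate 4 a summit at rank 3526 was 102 bp further upstream, on the hyx side and just past the matching limit.

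The nuclear effector gene Su(H) had a high promoter peak and almost nothing else. It lies at chr2L:15039488-15043334 on the + strand (FBgn0004837, 1 TSS). The peak, chr2L:15039076-15039748, had its summit 78 bp upstream of the TSS, a signal of 2618 and pooled rank 262. Replicate 2 placed it at rank 146 and replicate 4 at rank 233, with summits 59 bp apart. CIAPIN1 starts 627 bp away on the opposite strand, and the summit lay between the starts, 549 bp from that of CIAPIN1. The pooled list held 1 other summit within 10 kb, at rank 29588. In both replicates Su(H) ranked below N and neur and above every other member.

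At numb, the gene of the endocytic Notch inhibitor, the peak was at the internal start, as at neur. The gene (FBgn0002973, chr2L:9437469-9464184, + strand) has 2 TSSs. The IDR peak spanned chr2L:9449441-9449930 and its summit was 144 bp upstream of the internal TSS, in intron 2 of the longest transcript. Its signal was 390 and its rank 1154 in the pooled list, 1794 in replicate 2 and 1192 in replicate 4. At the distal numb TSS a relaxed summit 126 bp downstream ranked 11321, with 11169 and 21839 in the replicates. Among the other pooled summits the highest, at rank 4262, was 12 bp from a TSS of the neighbour scat.

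At the genes that modify or cut the receptor, fng and kuz, peaks were low and lay beyond 500 bp of the start. The fng gene (FBgn0011591, chr3L:20925891-20949512, - strand) had an IDR summit in intron 1, 5159 bp downstream of its TSS, and another 745 bp upstream. They ranked 2165 (signal 231) and 2404 (signal 212). The upstream one was closer to the TSS of a non-coding RNA gene, 526 bp away. The intron summit ranked 2195 and 2439 in replicates 2 and 4, with summits 8 bp apart, and the upstream one 3369 and 2398, with summits 4 bp apart. No pooled summit lay within 500 bp of the fng TSS, although replicate 2 had 2, the higher 23 bp upstream at rank 5587.

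The kuz gene (FBgn0259984, chr2L:13550139-13639411, + strand) is the longest of the group at 89273 bp, and had no IDR summit inside it. Its IDR summit, 853 bp upstream of the TSS, ranked 2999 with a signal of 180, the lowest of the 13. It lay 42 bp inside B4, which starts 811 bp away on the opposite strand. The replicates placed it at ranks 3202 and 4510. At the kuz TSS a relaxed summit 2 bp upstream ranked 12410, and it was matched in replicate 2 alone, at rank 4093.

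The coactivator gene mam, on arm 2R from 13991203 to 14060356 (FBgn0002643, + strand, 3 TSSs), had the most IDR summits, 4, all of low signal. In intron 2 a summit 8596 bp upstream of the second TSS ranked 2158 (signal 231). In intron 3 a summit 4028 bp from the TSS of CG18371 ranked 2403 (signal 212), and another 3381 bp from that TSS ranked 2914 (signal 185). The fourth was 454 bp upstream of the first TSS but 42 bp upstream of RN-tre, which starts 496 bp away on the opposite strand. It ranked 2428 (signal 210) and was the only one of the 13 with no replicate 2 summit within 100 bp. The nearest in replicate 2 was 106 bp away at rank 4892, and replicate 4 placed it at rank 1909. Closer to mam itself, a summit 147 bp upstream of the first TSS ranked 3331 with a signal of 167, just below the IDR limit. It was in replicate 4 at rank 2482. The nearest replicate 2 summit was 145 bp away, beyond the matching limit, at rank 5259, and was the highest mam promoter summit of that replicate. Relaxed summits lay at the other starts too. At the second TSS they were 321 bp upstream at rank 3416 (15663 and 2431 in replicates 2 and 4) and 103 bp upstream at rank 4678 (6708 and 7903). The highest at the third TSS was 17 bp downstream at rank 7287 (6531 and 15850).

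The ligand genes Dl and Ser and the repressor gene H had no IDR summit within 10 kb. Dl, named Delta in the annotation (FBgn0000463, chr3R:19302731-19326217, - strand), had 18 pooled summits there, the highest at rank 10171 in intron 1. A summit 15 bp downstream of its TSS ranked 23969. Ser (FBgn0004197, chr3R:27172090-27194267, - strand) had 9, the highest at rank 8195 in intron 4, and none within 500 bp of a TSS. Replicate 2 had 2 Ser promoter summits, the higher 77 bp downstream of a TSS at rank 21468, and replicate 4 had none. H (FBgn0001169, chr3R:20621938-20628915, + strand) had 6, and none inside the gene. The highest H summit, at rank 8103, was 2 bp from the TSS of Pi3K92E and the next 21 bp from that of Lrrk. In single replicates the highest summits within 10 kb ranked 7920 and 5413 for Dl, 5919 and 9062 for Ser and 5904 and 5856 for H, in replicates 2 and 4, all below rank 3257. The nearest IDR summit was 20946 bp from Ser, 27535 bp from H and 76035 bp from Dl. At the other genes, every IDR summit inside the 10 kb limit lay in the gene or at most 853 bp from it, and the nearest beyond the limit was 11375 bp from mam.

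**Figure D2:**
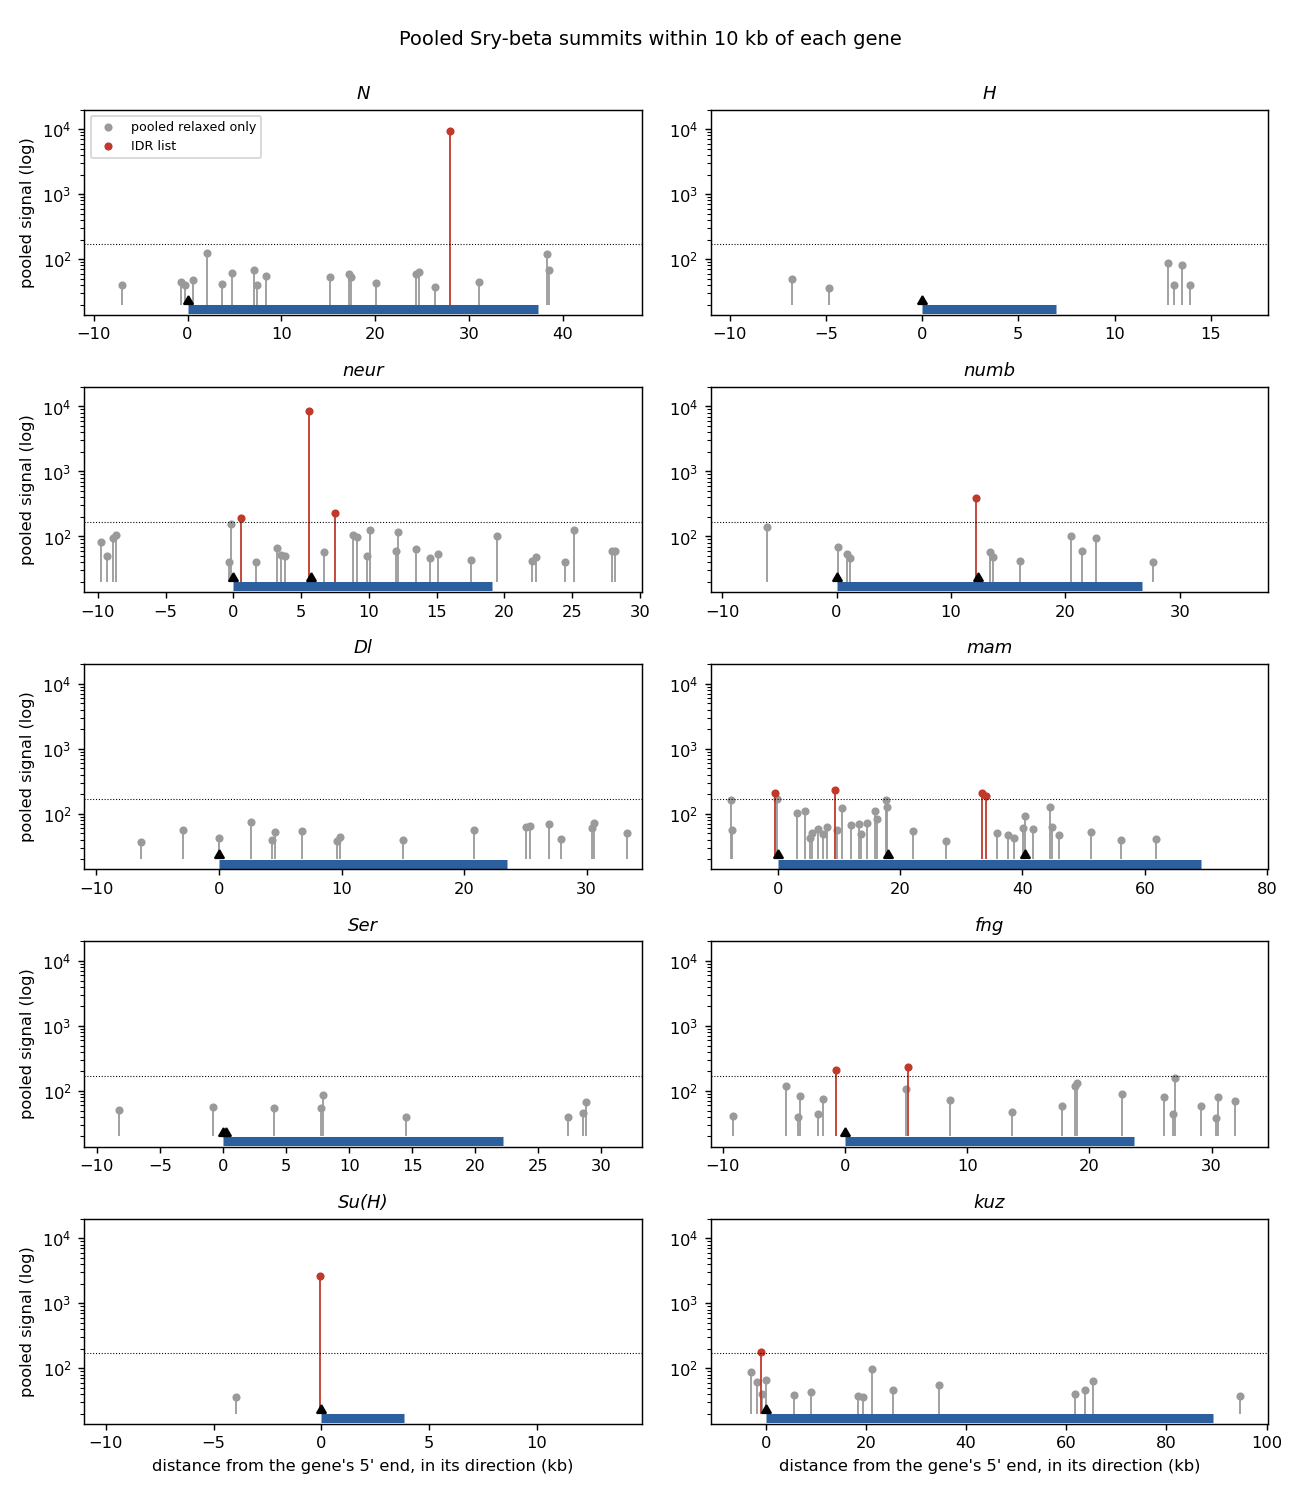
Pooled summits in and within 10 kb of each gene by distance from its 5′ end in the direction of transcription (kb), with height as pooled signal (log axis). Red summits are in the IDR list and grey ones are not, the blue bar is the gene, triangles are TSSs and the dotted line is the lowest IDR signal (169). N, neur and Su(H) each have a single summit above 2000, and Dl, Ser and H have none above the line.

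Counted by position, the IDR list marked 4 of 10 members at a promoter (neur, Su(H), numb and mam), where it marked 18.0% of all protein-coding genes. Any annotated TSS counted, and neur, numb and mam have 2, 2 and 3. The share was not matched for the number of TSSs. With only the 5′ end of each gene counted, 2 members were marked, and the share of all genes was not counted. The mam summit was closer to RN-tre than to mam. Replicate 2 alone, from its 3257 highest peaks, gave 3 (neur, Su(H) and numb, 18.5% of all genes), and replicate 4 alone gave the same 4 as the IDR list (17.4% of all genes). Intronic IDR summits over 500 bp from the gene's own TSSs were in 4 members (N, neur, mam and fng), against 4.23% of all genes. Long genes hold more of them. Among genes of 15 kb or more the share was 25.2%, and 8 members are that long, with 4 marked. An IDR summit in the gene or within 10 kb was found for 7 members, against 52.8% of all genes, and for 6 of the 8 long ones, against 61.2%. This last count was near its background. No test was made on these counts, because N and neur helped to choose the list.

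In the pooled relaxed list 7 members had a promoter summit (all but Ser, H and fng), against 53.1% of genes. Intronic summits were in 8, against 19.0%, and those 8 were all the members of 15 kb or more, of which the genome-wide share was 83.7%. All 10 had a summit within 10 kb, as did 91.5% of all genes and 95.8% of long ones. A relaxed summit near one of these genes was therefore common to most genes. The relaxed lists of replicates 2 and 4 alone gave 9 and 6 members with a promoter summit. The share of all genes in those lists was not counted.

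The members also differed in how crowded their surroundings were. The pooled list held 7.92 summits per 10 kb over neur and its flanks, a density above that of 98.9% of protein-coding genes, whose median was 2.69 (quartiles 1.36 and 4.12). Next came fng with 5.04, mam with 4.26, Dl with 4.14 and N with 3.66. numb (2.57), H (2.22), Ser (2.13) and kuz (1.46) were below the median, and Su(H) was lowest with 0.839, below all but 16.2% of genes. Crowding and the height of the best peak did not always go together. Su(H) had 2 summits and rank 262, while Dl had 18 and nothing above rank 10171.

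Ordered by the highest pooled summit in the gene or within 10 kb, N was in place 38 and neur in place 77 of 13968 genes, and Su(H) in place 1353. numb was in place 3938, mam in 5849, fng in 5861 and kuz in 7041. H, Ser and Dl came last, at 10292, 10332 and 10802. A summit counts for every gene within 10 kb, so neighbours share places.

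**Figure D3:**
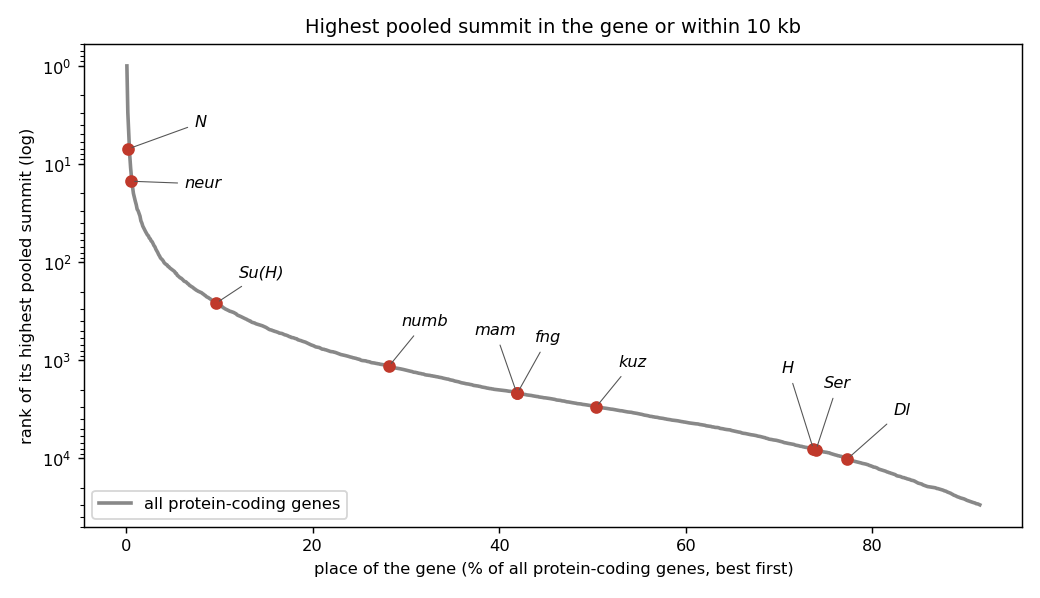
Rank of the highest pooled summit in or within 10 kb of a gene (log axis, 1 at the top) by the place of the gene among all 13968 protein-coding genes (%), with the 10 Notch pathway genes in red. N (rank 7), neur (15) and Su(H) (262) lie on the steep left part and H, Ser and Dl (8103 to 10171) on the right.

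Between the replicates, 12 of the 13 summits were found within 100 bp in both relaxed lists, as were 86.7% of all IDR summits. The replicate summits of these 12 were 0 to 102 bp apart, with a median of 24 bp, beside a median of 28 bp (quartiles 11 and 57) for all 2825 such IDR peaks. The highest 4 kept their group order in each replicate, with N and neur first, Su(H) next and numb after it. In replicate 2 numb, at rank 1794, was close to the next neur summit, at 1892. The other 9 were mixed. Ranks ran from 1892 to 4248 in replicate 2 for the 8 that were matched there, and from 1909 to 4660 in replicate 4, and their order differed between the replicates. The mam summit in intron 2, for example, was the lowest of those matched in replicate 2 (rank 4248) but ranked 2146 in replicate 4.

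**Figure D4:**
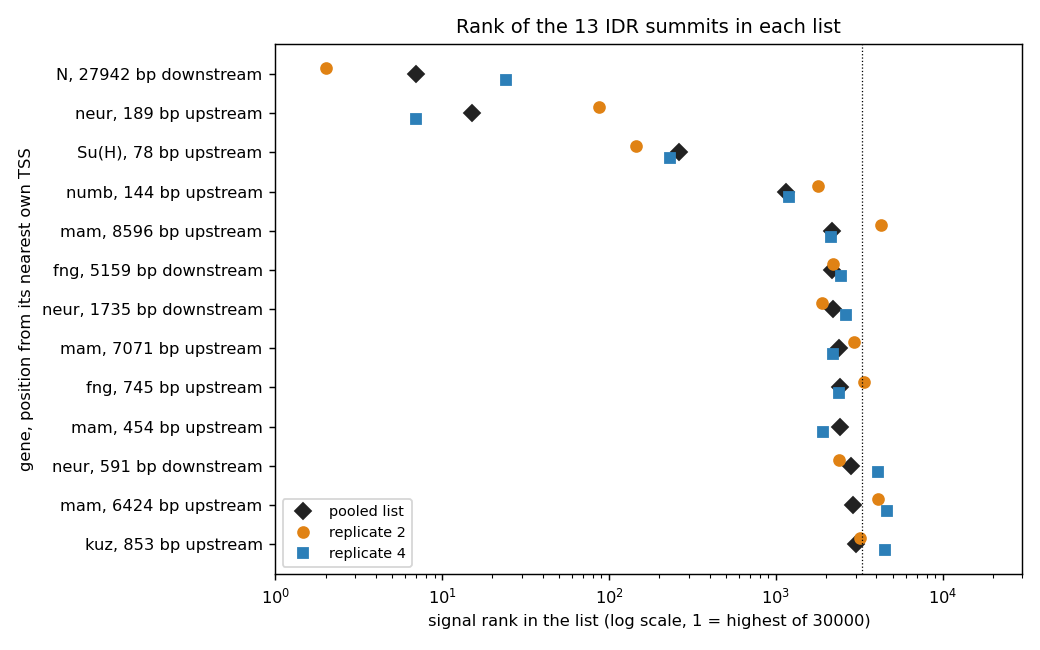
Signal rank (log axis) of each of the 13 IDR summits in the pooled list, replicate 2 and replicate 4, named by gene and distance from its nearest own TSS, with the dotted line at rank 3257, the length of the IDR list. N, neur and Su(H) stand apart from the rest in all 3 lists, numb (1794) is close to the next neur summit (1892) in replicate 2, and 1 mam summit has no replicate 2 value.

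Short words were also searched at these summits. The words were AGAGATG, the core shared by sites of Sry-beta and its relative Sry-delta, TATCGATA (the DRE promoter element), GGTCACAC (the core of Motif 1), TAGCTA (a word found in earlier results of these data), GAGAG (GAGA factor), CAGGTAG (Zelda), and GTGGGAA and GTGAGAA (Su(H) sites). Each was sought on either strand, up to 50 bp from a summit, and none is part of another. Of the 13 summits 2 had any. The share of all IDR summits with any of the 8 words was not counted, so 2 of 13 cannot be called few or many. Singly, the words were at 0.491% to 9.33% of IDR summits. The Su(H) promoter held TAGCTA, present at 7.95% of IDR and 2.35% of pooled relaxed summits, and the upstream fng summit held GAGAG, present at 9.33% and 12.5%. AGAGATG, present at 3.19% of IDR and 1.68% of relaxed summits, was at none. TATCGATA, at 3.32% and 1.27%, was also at none within 50 bp, and first appeared 85 bp downstream of the Su(H) summit. The GTGGGAA word was 64 bp from the neur summit that lies next to hyx. Base composition varied widely, from 25.7% GC around the neur promoter summit and 46.5% around the N summit to 55.4% at kuz, with a median of 35.6% over IDR summits. A match is no proof of a site, and a missing one says only that these letters are not there.

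Other genes of the pathway were read from 6 lists of 53 genes, chosen with earlier results known. Of the 53, 18 had a promoter IDR summit, beside 18.0% of all genes. Replicate 2 alone gave 12 and replicate 4 alone 21. The trafficking list, of proteins that move ligand or receptor through the cell, had the most, 8 of 12. It was led by Nak, an endocytic kinase (signal 974, rank 542), bib (612, rank 752), mib1, a ubiquitin ligase that like Neuralized acts on ligands (334, rank 1373), and AP-2alpha, an adaptor subunit (283, rank 1703). The Nak summit was closer to the TSS of Tango6 and that of AP-2alpha to ebi. The mib1 summit was on the TSS itself and ranked 894 and 2273 in replicates 2 and 4. The bib summit had no replicate 2 summit within 100 bp and ranked 673 in replicate 4. Below rank 3257 in replicate 2 were also Nedd4 (8776) and dx (4903), and in replicate 4 Gp150 (5548) and Su(dx) (4537).

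Receptor processing and glycosylation had 5 of 11, namely Fur1, a furin protease (signal 431), O-fut1, which adds O-fucose to Notch (327), the gamma-secretase subunits aph-1 (247) and pen-2 (245), and rumi, which adds O-glucose (202). The pen-2 summit was 48 bp from the TSS of Ote and the aph-1 summit slightly closer to Snx21. In replicate 2 these ranked 3345 and 5356, and in replicate 4 pen-2 had no summit within 100 bp and aph-1 ranked 1555. The catalytic gamma-secretase subunit Psn and nct had none in the IDR list, although all 11 genes had a relaxed promoter summit, beside 53.1% of all genes.

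Nuclear cofactors had 2 of 8, with the highest promoter peak of all these lists at nej, the gene of the acetyltransferase CBP. It spanned chrX:9685668-9687946, with its summit 103 bp upstream of the TSS, a signal of 4720 and rank 110, and ranked 66 and 122 in replicates 2 and 4. The corepressor gene gro followed (signal 292, rank 1617). CtBP, a corepressor recruited by Hairless, had no promoter summit in the IDR list but an intronic IDR one 599 bp from its TSS with a signal of 2370 and rank 282, named after its value was seen.

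Among genes that Notch switches on, the bHLH repressor list had 3 of 8, namely E(spl)m7-HLH (signal 410, 400 bp upstream), E(spl)m3-HLH (263, 305 bp upstream) and E(spl)mdelta-HLH (247, 347 bp upstream, nearer to CG43116). Their pooled ranks were 1079, 1844 and 2008. In replicate 2 they ranked 3836, 4826 and 2348, so that E(spl)mdelta-HLH alone was above rank 3257, and in replicate 4 they ranked 974, 1570 and 2566. All 8 genes of that list had an IDR summit within 10 kb, beside 52.8% of all genes, but most are neighbours in 1 complex and share summits. None of 8 Bearded family genes and none of 6 other targets (ct, vg, wg, sim, dpn and klu) had a promoter IDR summit, although 6 and 2 of them had a relaxed one, beside 53.1% of all genes.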

How the data were processed

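Binding was measured by ChIP-seq in 2 libraries of 1 group. The deposited readme files give the assembly as dm6 and derive each replicate's relaxed list from its own alignment and a control alignment, the pooled list from both, and the IDR list from these 3. Names of the aligner and caller, and the IDR limit, were not given in the sources used here. Signal is the value the authors gave each peak, on an unstated scale, and served only for ranks and levels inside 1 list. The −log10 q values deposited with the peaks were left out. Chromatin was sheared to 200 to 800 bp, per the labels.

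From these lists, summits were assigned with Python 3.11.15, numpy 2.4.6 and pandas 2.3.3 to genes of Ensembl release 115: promoter (within 500 bp of any TSS), intron (over 500 bp from the gene's TSSs, in no exon of it) or within 10 kb of the gene. Intron numbers refer to the longest transcript whose intron holds the summit. Peaks lay on 2L, 2R, 3L, 3R, 4 and X, within the arm lengths of the release 6 genome, and none on Y. Summits past a peak's end were moved to its last base (2 in the pooled list). Assignment was tested on simulated data, where 1166 of 1166 planted summits at 200 genes were placed correctly. Dl matched the annotation as Delta, kul as Kul and nct as Nct; the other symbols matched directly. The members and lists were chosen with earlier results of these data known. The genes named are all members, the nearest coding genes of their summits, up to 4 genes with the highest promoter signal per list and the 3 intronic summits after N. The exceptions are further genes of a list with a peak and the intronic summits of heca, rdx, trx and CG6191, named after their values were seen. Alternatives covered the promoter and neighbourhood windows, the TSSs used, the signal limit, the matching distance, the motif window and each replicate alone. No test of conditions was possible with 1 group.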

Additional observations from a re-analysis of the deposited data

How the results depend on the processing

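The count of members with a promoter IDR summit, 4, was 3 with 250 bp, 6 with 1000 bp, 5 when the peak had only to overlap the window and 3 in the higher-signal 1628 peaks. It fell to 2 when only the 5′ end of each gene counted, because the neur and numb peaks are at internal starts. With 1 replicate alone it was 3 to 4. In the higher-signal 1628 IDR peaks, members with an intronic summit went from 4 to 1 (N) and those with a summit within 10 kb from 7 to 4. Other pathway genes with a promoter summit went from 18 to 8. That list is shorter, and why the counts fell was not tested. Each replicate alone gave 4 intronic members, 6 to 7 within 10 kb and 12 to 21 other pathway genes. Apart from promoters in the 3257 highest peaks of each replicate, the share of all genes was not counted at these settings. The changed counts therefore cannot be set against a background. The median rank of the 13 summits was 2207 in the pooled list and 2202 in replicate 4. In replicate 2 it was 2285, over the 12 summits matched there. Within 100 bp of a summit, a longer window, 4 summits in place of 2 held a searched word. The split by genes of 15 kb or more was added after seeing the data. Read depth is unknown, so it limits every rank by an unknown amount. No paired analysis was possible because there is 1 group.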

Other observations

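The word TAGCTA, itself found in earlier results of these data, lay within 50 bp of 259 of 3257 IDR summits and of 27 of the 100 highest. Within 100 bp it lay at 421 of the 3257 and at 42 of the 100 highest. N and neur, both among those 100, had it at neither distance. This count was made after the values were seen.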
